A study of Mus musculus with 3 samples.

Results

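The 4 thrombospondin genes that form a named series, *Thbs1*, *Thbs2*, *Thbs3*, and *Thbs4*, and the genes of 2 of their receptors, *Cd47* and *Cd36*, were followed through 3 single-cell RNA-Seq libraries of injured mice. They were chosen by symbol for the known roles of their proteins, with earlier results of these data known. Each matched 1 of the 27998 genes counted, so that 6 members were found. The tissues were bone marrow, peripheral blood, and the wounded tendon of male C57BL/6J mice operated at 10 weeks of age. All mice received a burn to the back together with a complete cut of the Achilles tendon, an injury that leads to heterotopic ossification (HO, bone formed outside the skeleton), and tissue was taken on day 3. No uninjured mouse is among these libraries. Marrow was flushed from femurs, blood was drawn from the heart and its mononucleated fraction taken on Ficoll, and both were freed of red cells. Only tendon was digested with enzymes. Tissue, preparation, and library therefore coincide and cannot be told apart. Cells were not sorted, there was 1 library per tissue, and how many mice each came from is not stated. The series was made to follow neutrophils from the marrow through the blood to the wound, and here the same question is put to the thrombospondins and their receptors.

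Thrombospondins are large calcium-binding glycoproteins that cells secrete into the matrix, where they act on cell adhesion, vessel growth, and growth factor activity rather than as structural fibers. TSP-1 and TSP-2, the products of *Thbs1* and *Thbs2*, assemble as trimers and carry the type 1 repeats that bind the scavenger receptor CD36 and inhibit vessel growth, and TSP-1 can also activate latent TGF-β. TSP-3, TSP-4, and the related cartilage oligomeric matrix protein (*Comp*) assemble as pentamers without those repeats, and TSP-4 and COMP are known constituents of tendon. CD47 binds the C-terminal domain of TSP-1 and is also the ligand of SIRPα, through which it restrains phagocytosis. CD36 additionally takes up long-chain fatty acids and oxidized lipoproteins in macrophages, microvascular endothelium, platelets, and fat cells.

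On GRCm38, with gene models of GENCODE M21 matched by Ensembl identifier, *Thbs1* (ENSMUSG00000040152) lies at chr2:118111876-118127133 on the plus strand, *Thbs2* (ENSMUSG00000023885) at chr17:14665500-14694235 on the minus strand, *Thbs3* (ENSMUSG00000028047) at chr3:89215180-89226837 on the plus strand, and *Thbs4* (ENSMUSG00000021702) at chr13:92751590-92794818 on the minus strand. *Cd47* (ENSMUSG00000055447) lies at chr16:49800533-49915010 on the plus strand and *Cd36* (ENSMUSG00000002944) at chr5:17781690-17888801 on the minus strand. *Thbs1* overlaps Gm29233 and *Thbs3* overlaps *Mtx1*, each on the opposite strand, and the sources used here do not state whether strand was used in counting. A RefSeq promoter entry (GRCm38.p6) was found for 5 of the 6 members, all but *Thbs1*. The 250 bases before the start site are shown for the 3 genes whose transcripts lay almost entirely in stromal cells, since these shared a cell source but differed in proximal sequence. Capitals mark a match on either strand to the TATA box, searched as TATAAA. They also mark the GC box on either strand, which was searched as GGGCGG.
*Thbs2*, chr17:14694263-14694512, minus strand: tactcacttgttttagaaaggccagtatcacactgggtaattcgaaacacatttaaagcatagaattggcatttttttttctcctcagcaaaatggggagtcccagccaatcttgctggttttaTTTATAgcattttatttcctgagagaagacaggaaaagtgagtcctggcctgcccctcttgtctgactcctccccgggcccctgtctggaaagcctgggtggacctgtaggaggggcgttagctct
*Thbs3*, chr3:89214930-89215179, plus strand: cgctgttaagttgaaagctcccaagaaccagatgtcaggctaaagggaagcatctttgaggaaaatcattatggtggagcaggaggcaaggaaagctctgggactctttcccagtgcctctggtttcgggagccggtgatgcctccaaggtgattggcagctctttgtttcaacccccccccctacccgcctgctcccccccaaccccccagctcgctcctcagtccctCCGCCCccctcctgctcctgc
*Thbs4*, chr13:92794819-92795068, minus strand: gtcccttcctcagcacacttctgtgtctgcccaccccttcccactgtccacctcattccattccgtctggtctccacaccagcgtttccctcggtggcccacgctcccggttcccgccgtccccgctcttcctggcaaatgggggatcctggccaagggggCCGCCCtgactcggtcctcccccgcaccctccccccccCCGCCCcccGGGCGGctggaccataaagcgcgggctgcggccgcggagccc
The *Thbs2* window held 1 TATAAA match, read on the reverse strand 126 bases before the start, and no GC box. *Thbs3* held 1 GC box 21 bases before the start, and *Thbs4* held 3, at 89, 51, and 42 bases. G and C made up 46.8% of the *Thbs2* window, 58.8% of the *Thbs3* window, and 70.8% of the *Thbs4* window. Neither *Cd47* nor *Cd36* held a TATAAA match, and each held 2 GC boxes. The AP-1 sequence, searched as TGANTCA, was in none of the windows examined. Of 32851 promoter windows of the same length, 12.4% held the TATA box, 32.7% the GC box, and 6.75% the AP-1 sequence, so these matches describe the sequence and mark no site of binding.

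The bone marrow library held 1855 cells with 49580625 unique molecular identifiers (UMIs), the blood library 2241 cells with 22542581, and the tendon library 5629 cells with 90621052. After filters on quality and doublets, 1813, 2146, and 4780 cells remained. From 1 to 6 barcodes were shared by any pair of libraries. Cells were clustered within each library on variable genes that excluded the 6 members and 33 genes of related function, and a cluster took a class name only from marker genes. Clusters that failed the naming rule stayed unnamed and held 12.6% of marrow, 0.885% of blood, and 14.9% of tendon cells. The tendon library contained tenocytes by their markers (*Scx*, *Tnmd*, *Mkx*, *Fmod*, *Kera*, and *Chad* all led 1 cluster), but only 39 of its cells were in that cluster. The blood library, a mononucleated fraction, held 400 neutrophil-like cells. Levels are UMIs of a gene per 1000000 UMIs of a class (CPM) with exact Poisson 95% intervals, which cover counting error only and not the spread between mice. Levels are compared between classes for 1 gene at a time and not between genes.

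Over all kept cells of a library, the thrombospondin genes were found mainly at the tendon injury site and *Cd47* at every site. *Thbs1* stood at 5.70 CPM in marrow (276 UMIs), 51.9 CPM in blood (1135 UMIs), and 596 CPM in the tendon injury site (50361 UMIs). *Thbs2* had no UMI in marrow or blood, which at 3 counts allows up to 0.062 and 0.137 CPM, and 94.0 CPM in tendon. *Thbs3* had 2 UMIs in marrow, 11 in blood, and 1166 in tendon, while *Thbs4* had 9, 0, and 15201. *Cd36* stood at 0.682, 24.8, and 100.2 CPM in marrow, blood, and tendon, with no overlap of intervals. *Cd47* had the opposite order, with 507 CPM in marrow, 431 CPM in blood, and 299.9 CPM in tendon. The classes of cells differed between libraries. In a whole library, fewer cells of a type and less RNA per cell cannot be told apart.

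**Figure D1:**
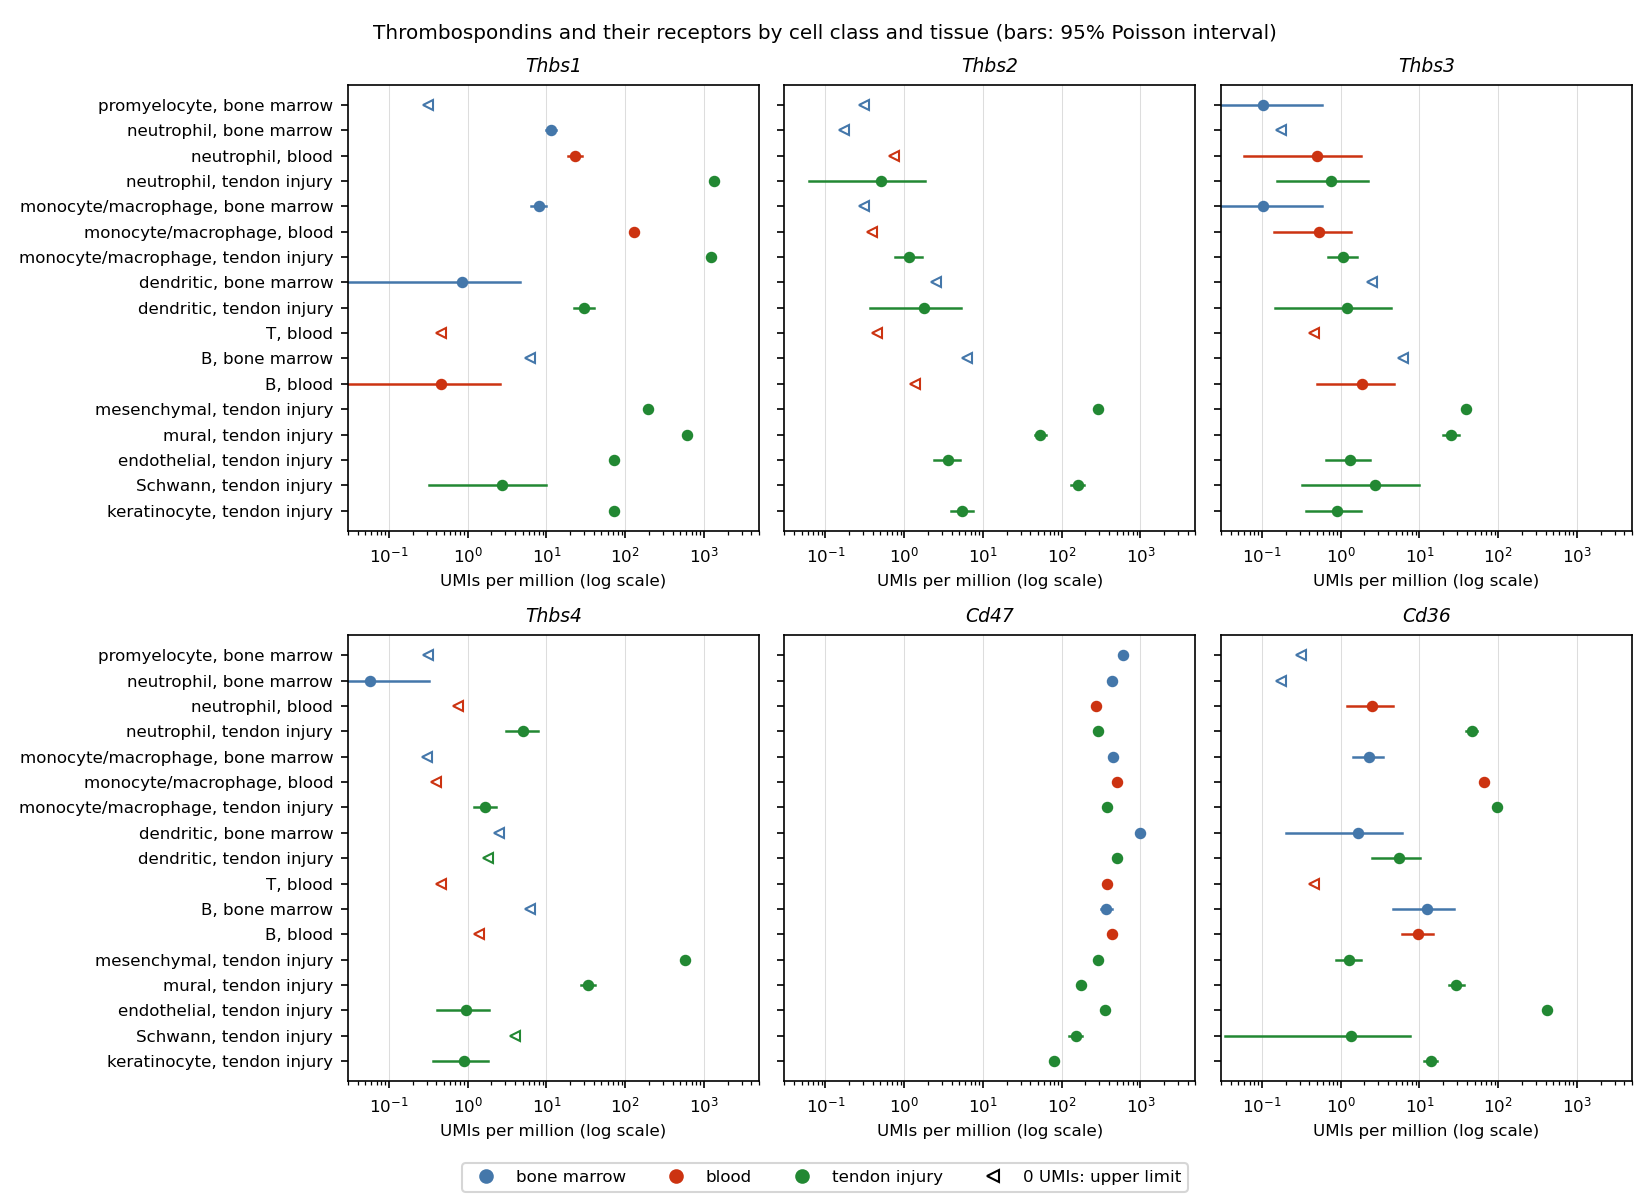
Level of each member (CPM, log scale) in the larger cell classes of marrow, blood, and tendon, with exact Poisson 95% intervals as bars and upper limits as open triangles where no UMI was found. *Thbs1* in the tendon stands at 1330 CPM in the neutrophil-like and 1233 CPM in the monocyte/macrophage-like class, *Thbs2* to *Thbs4* are highest in mesenchymal-like cells, *Cd36* is highest in endothelial-like cells, and *Cd47* lies between 79.0 and 981 CPM in the classes drawn.

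*Thbs1*, the TSP-1 gene, was found in myeloid cells of all 3 sites, and its level in them was highest at the tendon injury site. Neutrophil-like cells had 11.3 CPM in marrow (95% interval 9.81 to 13.04, 197 UMIs in 871 cells), 23.0 CPM in blood (18.6 to 28.2, 93 UMIs in 400 cells), and 1330 CPM in tendon (1294 to 1366, 5247 UMIs in 622 cells). Monocyte/macrophage-like cells had 8.02 CPM in marrow (6.34 to 10.0), 131 CPM in blood (123 to 139), and 1233 CPM in tendon (1218 to 1247). In both classes the tendon interval lay far above those of the other sites. The blood value of neutrophil-like cells came from 12 cells, and 53 of the 93 UMIs were in 1 of them. Without that cell it was 10.1 CPM, which is within the marrow interval.

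A *Thbs1* UMI was found in 63.5% of the neutrophil-like cells of the tendon and in 79.9% of its monocyte/macrophage-like cells, whose cells had medians of 3668.5 and 11953 UMIs. When every cell was thinned to 1000 UMIs, these shares were 47.6% (95% Clopper-Pearson interval 43.5 to 51.7) and 49.3% (47.0 to 51.6), so the interval of the first held that of the second. Thinning left out 21 and 17 shallower cells. In the same order the thinned shares were 0.756% and 6.05% in blood, and 1.15% and 1.46% in marrow. As a background, none of the 721 T-like cells of blood held a *Thbs1* UMI, which allows up to 0.416% of cells at a median depth of 8879 UMIs. At the tendon, 2 of the 62 Schwann-like cells (median depth 7921 UMIs) held 1 each, or 3.23%, the lowest level of the tendon classes. Shares were higher in other tendon classes of low depth, with 9.80% of 51 basophil/mast-like cells (median depth 3979 UMIs) and 9.09% of 22 B-like cells (2871 UMIs).

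Outside the myeloid classes, mural-like cells, the contractile cells of vessel walls marked by *Tagln*, *Acta2*, and *Myh11*, had the highest *Thbs1* level of the named tendon classes, 609 CPM (581 to 637). One mural-like cell held 212 of the 1799 UMIs, and without it the level was 544 CPM. Mesenchymal-like cells had 195 CPM (190 to 201), endothelial-like cells 72.9 CPM (67.2 to 78.9), keratinocyte-like cells 72.2 CPM (66.4 to 78.4), dendritic-like cells 30.2 CPM (22.4 to 39.7), and the 62 Schwann-like cells 2.70 CPM (0.327 to 9.74). The endothelial-like and keratinocyte-like levels did not differ beyond counting error, while the other neighbors in this order of classes had separate intervals. The order leaves out smaller named classes whose intervals overlapped listed ones. These were B-like (70.7 to 239 CPM), skeletal muscle-like (50.3 to 92.9 CPM), and basophil/mast-like cells (15.7 to 65.1 CPM). Of all *Thbs1* UMIs of the tendon library, 56.9% were in monocyte/macrophage-like cells (38.9% of cells), 16.5% in unnamed clusters (14.9% of cells), 10.4% in neutrophil-like cells (13.01%), and 10.0% in mesenchymal-like cells (14.4%).

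Within the myeloid classes of the tendon, *Thbs1* spanned more than an order of magnitude between clusters. Of the 6 monocyte/macrophage-like clusters, the highest was led by *Plac8*, *Ly6c2*, *Chil3*, and *Il1b*, genes of recently arrived inflammatory monocytes, with 3174 CPM (3101 to 3248) and a UMI in 98.4% of its 186 cells. A second *Plac8* and *Ly6c2* cluster without *Il1b* among its leading genes had 2140 CPM, and a cluster led by *Il10*, *Tnfsf9*, and *Ccr2* had 2086 CPM. The other 3 were lower: 638 CPM in the cluster led by *Pf4* and *Mrc1*, 432 CPM in that led by the interferon-induced genes *Rsad2* and *Ifit2*, and 169 CPM (158 to 180) in that led by *Ccl8*, *Cd163*, and *Folr2*, genes of tissue-resident macrophages. Between the highest and the lowest, the ratio was 18.8-fold (log2 4.23, interval 4.13 to 4.33). Among the unnamed clusters, those led by *Arg1* and *Spp1*, by the MHC class II genes *H2-Aa* and *Cd74*, and by the osteoclast genes *Acp5* and *Ctsk* had 1792, 736, and 155 CPM.

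The 3 neutrophil-like clusters of the tendon also differed. The largest, of 457 cells led by *Irg1* (also named *Acod1*) and *Hcar2*, had 2322 CPM (2249 to 2397), and the one led by *Mmp8* and *Ly6g* had 1853 CPM (1745 to 1967). The third, led by *Camp*, *Ngp*, and genes of the cell cycle, had 191 CPM (171 to 213). Its markers were mixed, with neutrophil markers summing to 43240 CPM and monocyte/macrophage markers to 9720 CPM, against 160560 and 705 CPM in the *Irg1* cluster. In blood the order was reversed: the *Cxcr2* and *Il1b* cluster, with 334 of the 400 neutrophil-like cells, had 2.17 CPM (0.798 to 4.73), and the *Camp* and *Ngp* cluster 67.9 CPM from 7 of 66 cells, or 27.9 CPM without 1 cell. The *Irg1* cluster of the tendon thus exceeded the *Cxcr2* cluster of blood by log2 10.06 (8.94 to 11.51). In marrow, *Thbs1* was at 29.6 CPM in the cluster led by *Ly6g* and *Ltf* (14.9 CPM without 1 cell), 24.5 CPM in that led by *Mmp8*, and 16.0 CPM in that led by *Retnlg* and *Cxcr2*. The 3 other neutrophil-like marrow clusters, led by *Ngp* and *Ltf*, by *Cenpf*, and by *Il1b* and *Wfdc17*, had 1.25, 0.413, and 0.729 CPM, and *Thbs1* was absent from 194 promyelocyte-like cells (up to 0.312 CPM). It was also absent from the unnamed marrow cluster of 228 cells (up to 0.346 CPM), whose neutrophil markers summed to 413626 CPM. With the libraries clustered together, marrow neutrophil-like cells had 7.48 CPM of *Thbs1*.

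The monocyte/macrophage-like cells of blood, a class name that does not separate monocytes from macrophages, were not uniform either. The 296 cells of the *F13a1* and *Ccr2* cluster, genes of classical monocytes, had 40.4 CPM of *Thbs1* (35.3 to 46.1), while the 115 cells of the *Cd300e* and *Ace* cluster, genes of nonclassical monocytes, had no UMI and a level at least 12.7-fold lower. A further 37 cells were led by *Prg4*, *C1qa*, and *Pf4* and had 688 CPM (640 to 739), which was 17.0-fold that of the *F13a1* cluster (log2 4.09, 3.87 to 4.31). These 37 cells held 770 of the 994 *Thbs1* UMIs of the class, and without them blood monocyte/macrophage-like cells had 34.6 CPM in place of 131. Their *Pf4* level was 4547 CPM, with no UMI of the platelet genes *Ppbp* or *Gp9*. An unnamed group of 19 cells led by hemoglobin genes and *Ppbp* had 511 CPM, all of it from 2 cells.

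**Figure D2:**
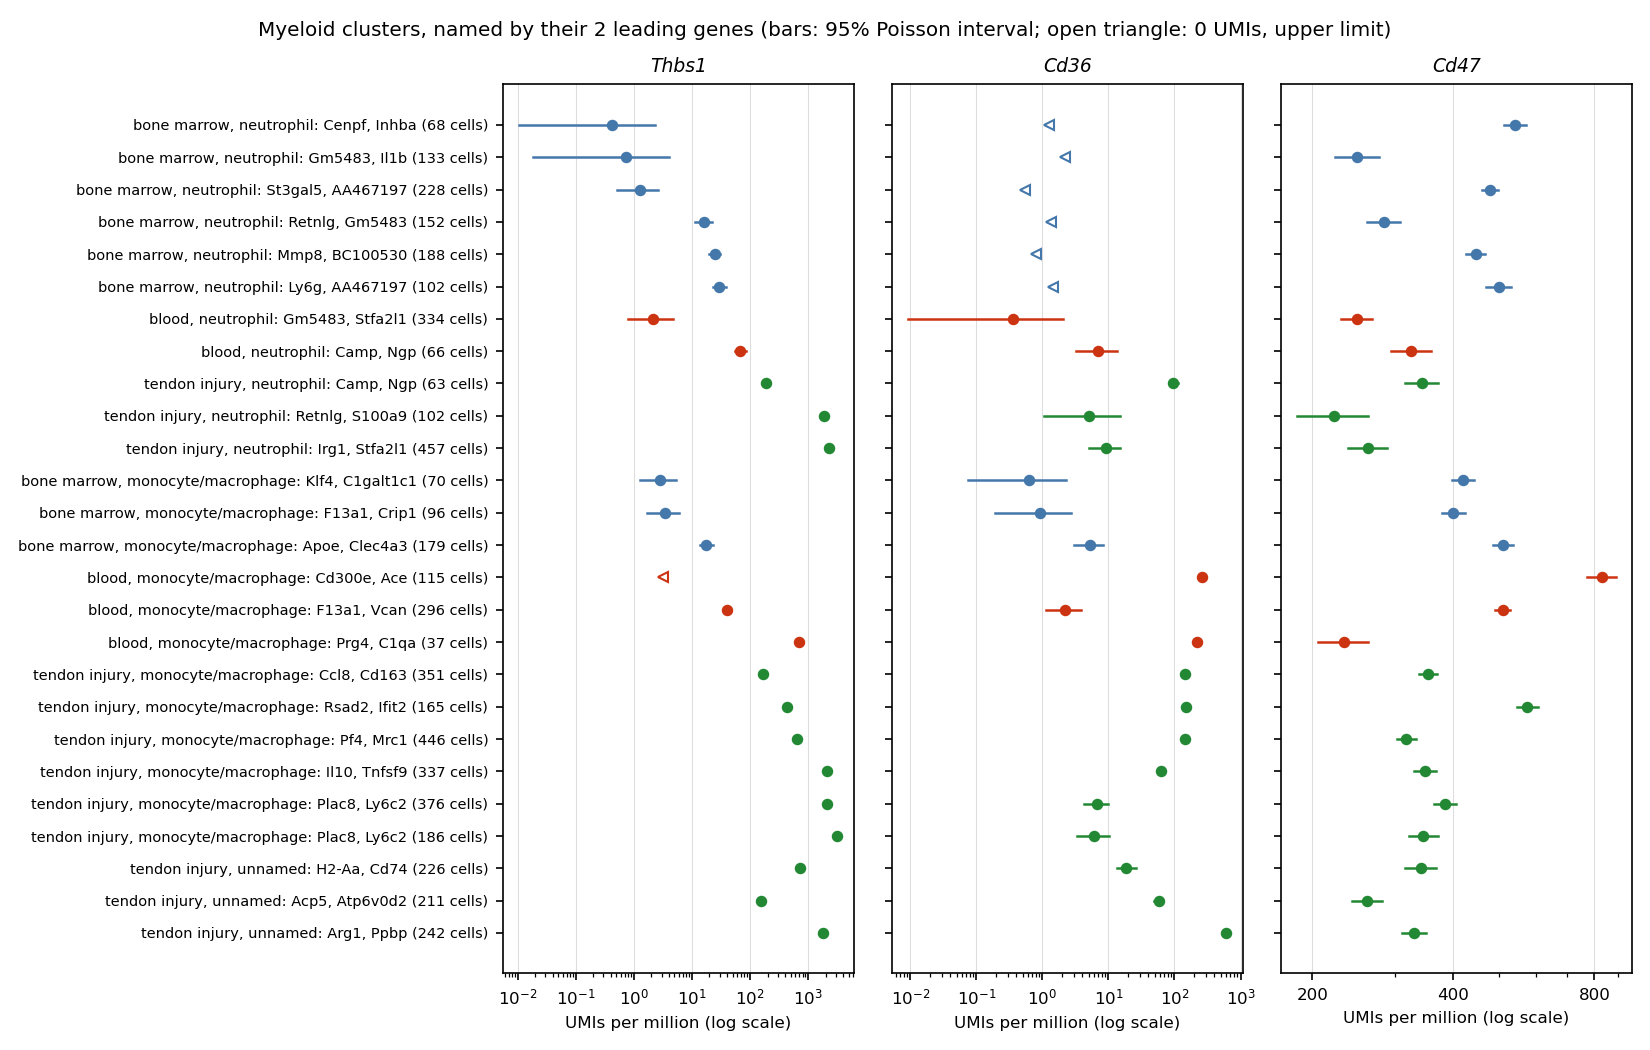
Levels of *Thbs1*, *Cd47*, and *Cd36* (CPM, log scale) in each neutrophil-like and monocyte/macrophage-like cluster and the related unnamed clusters of the 3 sites, named by leading genes, with 95% Poisson intervals and colors for the sites (blue marrow, red blood, green tendon). *Thbs1* and *Cd36* order the tendon clusters differently: the *Il1b* and *Chil3* cluster, drawn as the *Plac8* and *Ly6c2* cluster of 186 cells, has 3174 CPM of *Thbs1* and 6.15 CPM of *Cd36*, the *Cd163* cluster 169 and 144 CPM, and the *Arg1* and *Spp1* cluster 1792 and 597 CPM.

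*Thbs2*, the other trimeric thrombospondin, was a gene of stromal cells. Mesenchymal-like cells had 289 CPM (283 to 296, with a UMI in 82.4% of 687 cells) and held 94.3% of its UMIs in the tendon. Schwann-like cells, the glia of peripheral nerve, came next with 159 CPM (132 to 191, 118 UMIs in 13 of 62 cells), and mural-like cells had 53.8 CPM (45.7 to 62.8). These 3 intervals were separate, and the Schwann-like level was 2.96-fold the mural-like one (log2 1.57, 1.21 to 1.92). Keratinocyte-like cells had 5.47 CPM and endothelial-like cells 3.55 CPM. In monocyte/macrophage-like cells of the tendon 27 cells held 1 UMI each (1.16 CPM, 1.45% of cells), and neutrophil-like cells had 2 UMIs. The paper names *Thbs2* among genes of late neutrophil maturation that were enriched in neutrophils of the injury site. That comparison was among neutrophils of different sites and not with stromal cells.

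UMIs of 5 mesenchymal marker genes (*Col1a1*, *Col1a2*, *Col3a1*, *Dcn*, and *Lum*) were also found in other tendon classes, whether made there or carried over, which was not tested. For each 1000 of these UMIs, mesenchymal-like cells had 13.3 *Thbs2* UMIs, and monocyte/macrophage-like cells had 17.0 (11.2 to 24.9) and endothelial-like cells 13.9 (9.32 to 19.8), intervals that held the mesenchymal value. Schwann-like cells had 177 (144 to 215) and keratinocyte-like cells 146 (103 to 201), so in these the *Thbs2* count stood above that ratio. The corresponding *Thbs4* value was 26.3 in mesenchymal-like cells, 24.6 (17.4 to 33.8) in monocyte/macrophage-like cells, 58.5 (35.3 to 91.8) in neutrophil-like cells, 23.7 (9.46 to 49.5) in keratinocyte-like cells, and 3.69 (1.59 to 7.29) in endothelial-like cells. For *Thbs3* it was 1.82 in mesenchymal-like, 15.8 (10.2 to 23.4) in monocyte/macrophage-like, 5.08 (2.53 to 9.11) in endothelial-like, and 23.7 (9.46 to 49.5) in keratinocyte-like cells. The *Thbs4* interval of neutrophil-like cells and the *Thbs3* intervals of the last 3 classes thus lay above the class-wide mesenchymal ratio. The *Thbs4* interval of endothelial-like cells lay below it. For *Thbs4* this ratio averaged unlike mesenchymal-like clusters. The tenocyte-marker cluster and those led by *Cilp* and by *Cxcl5* had 5799, 824, and 258 CPM of *Thbs4*. The 5 genes summed to 39120, 34925, and 15945 CPM in them. The neutrophil-like value was not compared with single clusters.

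*Thbs3*, whose product forms pentamers, was sparse and lay in the same stromal classes. Mesenchymal-like cells had 39.5 CPM (37.1 to 42.0, 1023 UMIs) and mural-like cells 25.0 CPM (19.7 to 31.4), and these classes held 87.7% and 6.35% of the tendon UMIs. A UMI was found in 59.8% and 41.7% of their cells, at median depths of 34823 and 24386 UMIs, and in 4.96% and 5.66% after thinning, with overlapping intervals. All other classes of the tendon with at least 1 UMI had between 0.760 and 2.70 CPM. In blood, 4 UMIs were in B-like cells, 4 in monocyte/macrophage-like cells, 2 in neutrophil-like cells, and 1 in a basophil/mast-like cell.

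*Thbs4*, which encodes a pentameric thrombospondin known from tendon and muscle, was held by few cells at a high level. Mesenchymal-like cells had 570 CPM (561 to 580), from 241 of 687 cells, and 97.1% of all its tendon UMIs. The highest single cell held 601 of the 14765 UMIs. Neutrophil-like cells had 5.07 CPM (3.10 to 7.83, 20 UMIs), monocyte/macrophage-like cells 1.68 CPM (1.19 to 2.29), and endothelial-like cells 0.948 CPM, while Schwann-like cells had none (up to 4.05 CPM). Mural-like cells had 34.2 CPM, but 97 of the 101 UMIs were in 1 cell and the level was 1.40 CPM without it. In marrow, 8 of the 9 *Thbs4* UMIs were in 8 cells of the unnamed cluster led by histone genes and *Fcnb*. Its neutrophil markers summed to 413626 CPM, but it was not part of the marrow neutrophil-like class.

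The mesenchymal-like class consisted of 3 clusters, and of the 4 thrombospondins *Thbs4* had the largest ratio between any pair of them. In the 39 cells of the tenocyte-marker cluster it reached 5799 CPM (5628 to 5973) and was detected in 97.4% of cells, with 5443 CPM when the highest cell was left out. The 251 cells led by *Cilp*, *Aspn*, and *Postn* had 824 CPM (803 to 845, in 35.5% of cells), and the 397 cells led by *Cxcl5*, *Timp1*, and *Tnc* had 258 CPM (251 to 266, in 28.7% of cells). The tenocyte-marker cluster was thus 7.04-fold above the first (log2 2.82, 2.76 to 2.87) and 22.5-fold above the second (log2 4.49, 4.43 to 4.55). *Thbs4* is itself among its leading genes, although the gene was not used for clustering. *Comp* is the first of them.

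*Thbs1* had the same order with smaller ratios, at 353 CPM (312 to 398), 277 CPM (265 to 290), and 158 CPM (152 to 164) in the tenocyte-marker, *Cilp*, and *Cxcl5* clusters. *Thbs3* and *Thbs2* did not. *Thbs3* was highest in the *Cilp* and *Postn* cluster, with 73.7 CPM (67.4 to 80.4), against 29.2 CPM (18.3 to 44.2) in the tenocyte-marker cluster and 27.0 CPM (24.7 to 29.5) in the *Cxcl5* cluster, whose intervals overlapped. *Thbs2* followed the order 427, 337, and 235 CPM for the *Cilp*, tenocyte-marker, and *Cxcl5* clusters. All 4 thrombospondins were higher in the *Cilp* than in the *Cxcl5* cluster, by log2 0.81 for *Thbs1*, 0.86 for *Thbs2*, 1.45 for *Thbs3*, and 1.67 for *Thbs4*. An unnamed cluster of 17 cells led by *Sfrp5* and *Msln* also held *Thbs1* (459 CPM), *Thbs2* (147 CPM), *Thbs3* (41.3 CPM), and *Thbs4* (627 CPM).

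**Figure D3:**
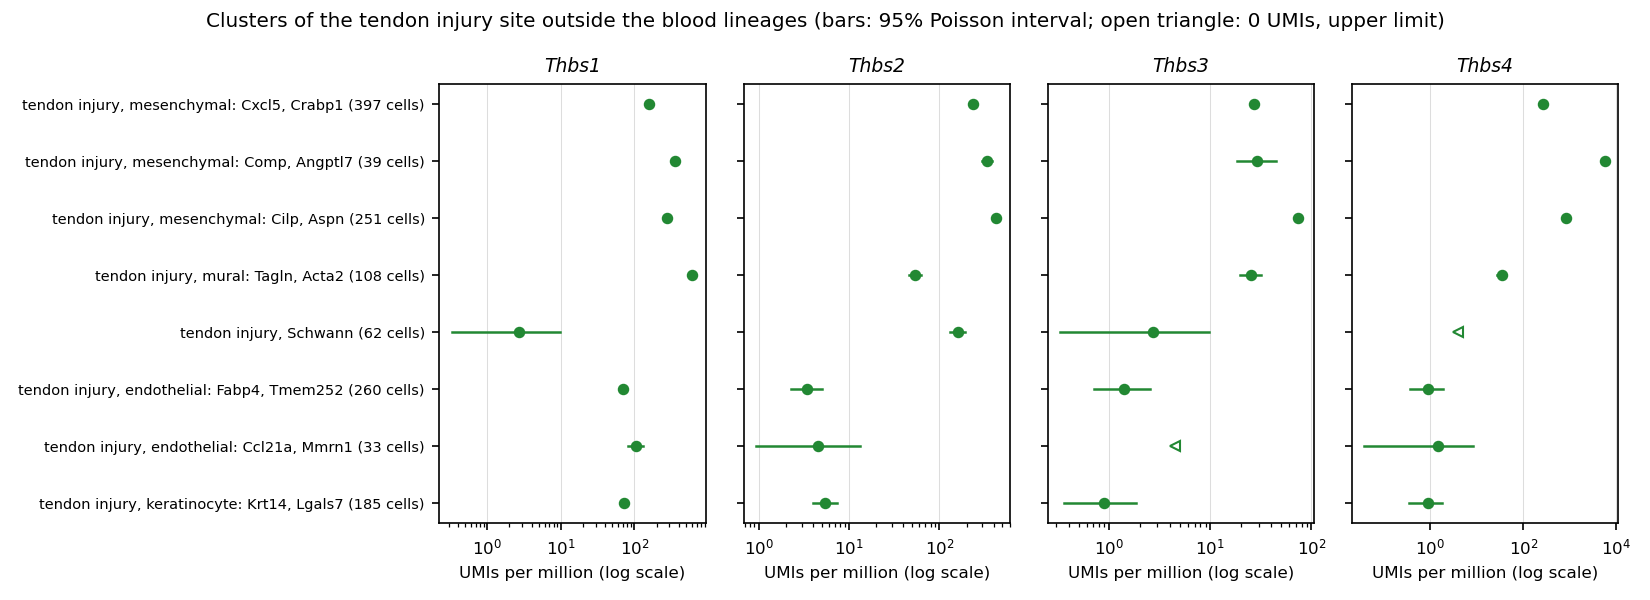
Levels of the 4 thrombospondins (CPM, log scale) in the stromal, vascular, glial, and epithelial clusters of the tendon injury site, named by class and, except for the Schwann-like cluster, by first leading genes, with 95% Poisson intervals. The tenocyte-marker cluster, shown as *Comp* and *Angptl7*, stands at 5799 CPM of *Thbs4* against 824 and 258 CPM in the other mesenchymal-like clusters, while *Thbs3* is highest in the *Cilp* and *Aspn* cluster with 73.7 CPM.

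*Cd47*, the receptor gene shared by TSP-1 and SIRPα, was detected in every class of the 3 sites. Its highest class levels were in dendritic-like cells of marrow, led by *Siglech*, with 981 CPM (926 to 1039), in basophil/mast-like cells of blood with 755 CPM (684 to 832) and of marrow with 684 CPM, and in NK-like cells of blood with 696 CPM (642 to 753). Promyelocyte-like cells had 599 CPM and B-like and T-like cells of blood 438 and 376 CPM. The lowest were keratinocyte-like cells with 79.0 CPM (72.9 to 85.4), the 16 skeletal muscle-like cells with 86.5 CPM (65.2 to 113), Schwann-like cells with 152 CPM (126 to 183), and mural-like cells with 174 CPM (159 to 190). Neither the first nor the last pair differed beyond counting error. The *Siglech* cluster of the tendon, of 18 cells, likewise had the highest *Cd47* level there, 1084 CPM (907 to 1287).

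In neutrophil-like cells, *Cd47* stood at 440 CPM in marrow (431 to 450), 273 CPM in blood (257 to 289), and 291 CPM in tendon (274 to 308), so that marrow was higher and the other sites overlapped. Monocyte/macrophage-like cells had 443, 508, and 373 CPM at these sites, with separate intervals and the blood highest. Within marrow, neutrophil-like clusters led by *Cenpf*, *Ly6g*, *Ngp*, and *Mmp8* had 542, 500.1, 479, and 446 CPM, and those led by *Cxcr2* and by *Il1b* had 284 and 249 CPM, the latter close to the 249 CPM of the *Cxcr2* cluster of blood. In blood, the *Cd300e* and *Ace* monocytes had 829 CPM (772 to 890), the *F13a1* and *Ccr2* monocytes 510 CPM, and the *Prg4* and *C1qa* cells 233 CPM. At the tendon, the *Rsad2* and *Ifit2* cluster had 575 CPM (547 to 605) and the 5 other monocyte/macrophage-like clusters between 318 and 384 CPM.

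*Cd36*, the scavenger receptor gene, was concentrated in endothelial cells and a part of the macrophages. Endothelial-like cells had 420 CPM (406 to 434, with a UMI in 71.3% of 293 cells) and 41.9% of the tendon UMIs in 6.13% of the cells. Nearly all of this level lay in the 260 cells led by *Plvap*, *Aqp1*, and *Gpihbp1*, genes of blood capillaries and venules, with 456 CPM (441 to 471). The 33 cells led by the lymphatic markers *Prox1*, *Flt4*, and *Lyve1* had 2 UMIs, or 3.00 CPM (0.364 to 10.9), and the difference between the clusters was log2 7.24 (5.39 to 10.29). Mural-like cells had 29.4 CPM (23.6 to 36.3), keratinocyte-like cells 13.9 CPM with 66 of 109 UMIs in 1 cell, and mesenchymal-like cells 1.27 CPM with 16 of 33 UMIs in 1 cell. As a background, 1 of 62 Schwann-like cells (1.61%) and 2.33% of mesenchymal-like cells, at a median depth of 34823 UMIs, held a *Cd36* UMI.

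Among myeloid cells, *Cd36* was nearly absent from marrow, with no UMI in 871 neutrophil-like cells (up to 0.173 CPM) and 2.26 CPM in monocyte/macrophage-like cells. The latter had 65.5 CPM in blood (59.9 to 71.6) and 96.2 CPM in tendon (92.2 to 100.2). In blood it lay in the *Cd300e* and *Ace* cluster (259 CPM, 228 to 294) and the *Prg4* and *C1qa* cluster (216 CPM, 190 to 245), and the *F13a1* and *Ccr2* cluster had 2.17 CPM. At the tendon the *Plac8* and *Ly6c2* clusters, which had the highest *Thbs1* levels of their class, had 6.60 and 6.15 CPM, the *Il10* cluster 63.0 CPM, and the clusters led by *Cd163*, by *Pf4* and *Mrc1*, and by *Rsad2* 144, 145, and 149 CPM, which did not differ beyond counting error. The unnamed *Arg1* and *Spp1* cluster was highest of all tendon clusters with 597 CPM (572 to 623). Neutrophil-like cells of the tendon had 45.9 CPM (39.4 to 53.1), but 163 of the 181 UMIs were in the mixed *Camp* and *Ngp* cluster (95.4 CPM) and the other clusters had 9.09 and 5.12 CPM. B-like cells had 9.70 CPM in blood and 12.5 CPM in marrow (6 UMIs), and T-like and NK-like cells of blood had none.

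**Figure D4:**
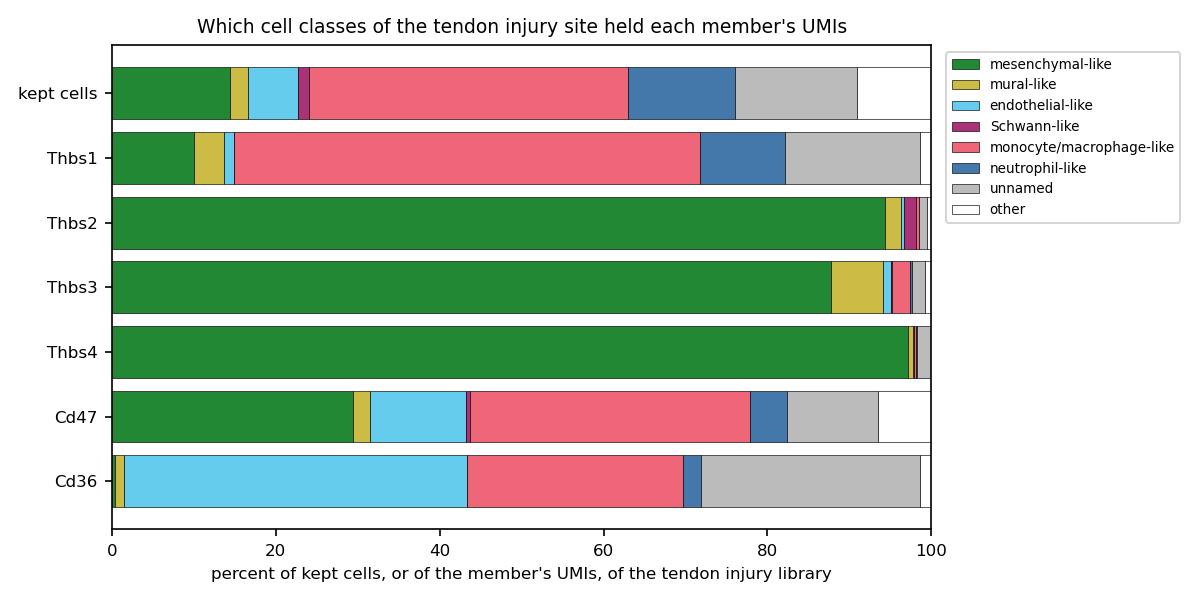
Share (%) of each member's UMIs in the tendon library held by each cell class, with the share of cells for comparison. Mesenchymal-like cells hold 94.3% of *Thbs2*, 87.7% of *Thbs3*, and 97.1% of *Thbs4* UMIs with 14.4% of the cells, monocyte/macrophage-like cells hold 56.9% of *Thbs1*, and endothelial-like cells hold 41.9% of *Cd36* with 6.13% of the cells.

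Between the tendon and blood, neutrophil-like cells had 57.8-fold more *Thbs1* (log2 5.85, interval 5.56 to 6.16) and 18.5-fold more *Cd36* (log2 4.21, 3.30 to 5.30) at the injury site. *Thbs4* was at least 6.83-fold higher, with 20 UMIs against none. *Cd47* differed by log2 0.09 (-0.03 to 0.21), and its sign changed to -0.58 when classes were scaled by the median ratio over genes. A gene was counted as past 2-fold if the groups held at least 20 UMIs together. On this count 3 of the 4 members with enough UMIs were higher and 0 lower, against 41.0% of all genes higher and 8.99% lower. *Thbs2* and *Thbs3* had fewer UMIs. The median log2 ratio of the members was 5.03 (3.49 with *Thbs4* at its lower bound) and that of all genes 0.67. Without the cycling *Camp* and *Ngp* clusters, an alternative added after the data were seen, only *Thbs1* was counted, at log2 9.98. *Cd36* then fell under the minimum of UMIs, with 15 and 3 UMIs in the remaining tendon clusters (9.09 and 5.12 CPM) against 1 in blood (0.362 CPM). Their *Cd36* ratios to the blood cluster were log2 4.65 (1.95 to 10.04) and 3.82 (0.18 to 9.54). The second interval reached below 2-fold.

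Other genes of the pathway were also higher in the neutrophil-like cells of the tendon, 15 of 23 with enough UMIs against 2 lower. Their median was 1.44, beside the 41.0% and 8.99% of all genes and the median of 0.67 given above. These values include the mixed *Camp* and *Ngp* cluster, with monocyte/macrophage markers at 9720 CPM against 705 and 748 CPM in the other clusters. The list was not counted without it. Of the thrombospondin receptors and partners, 6 of 8 were higher, among them the heparan sulfate proteoglycan *Sdc4* (95.3 against 0.247 CPM, log2 8.59, 6.10 to 13.90), the endocytic receptor *Lrp1* (66.7 against 7.18 CPM), the integrin subunits *Itgb1* (146 against 32.2 CPM) and *Itgav* (47.4 against 12.1 CPM), and *Calr*. *Itga4* (52.5 against 156 CPM) and *Itgb3* were lower. *Sirpa*, the CD47 counter-receptor, and its phosphatase genes *Ptpn6* and *Ptpn11* stayed within 2-fold, with *Sirpa* at 204 and 176 CPM. Of the lipid and scavenger genes, 5 of 7 were higher, including the lipid droplet gene *Plin2* (627 against 71.0 CPM) and the scavenger receptor gene *Msr1* (52.7 against 7.42 CPM). Of the TGF-β genes, 4 of 5 were higher, among them *Tgfb1* itself (116 against 42.6 CPM), *Tgfbr1*, and *Smad7*.

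Other summed levels moved with site as well. The summed level of *Fos*, *Jun*, *Junb*, *Egr1*, *Atf3*, *Hspa1a*, and *Hspa1b*, genes known to respond to dissociation, which were listed after the data were seen, was 125 CPM in marrow, 939 in blood, and 3339 in tendon neutrophil-like cells. In monocyte/macrophage-like cells it was 245, 726, and 4434 CPM. The neutrophil markers summed to 507849, 350084, and 130105 CPM in the neutrophil-like cells of these sites. The monocyte/macrophage markers summed to 1055, 743, and 4616 CPM in them. Within the tendon class, the latter stood at 9720 CPM in the mixed *Camp* and *Ngp* cluster and at 705 and 748 CPM in the others. The part of these differences in the *Thbs1* and *Cd36* ratios was not tested.

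Between blood and marrow, *Thbs1* of neutrophil-like cells was log2 1.02 higher in blood (0.65 to 1.38), a value that rested on 1 cell as given above and turned to -2.38 without the *Camp* and *Ngp* clusters and to -0.52 with cells weighted equally. *Cd47* was lower in blood by log2 -0.69 (-0.78 to -0.60). Thus 1 of 2 members with enough UMIs was past 2-fold higher and 0 lower, against 17.7% and 9.42% of all genes, and the member median of 0.16 was near the 0.17 of all genes. Of the pathway genes, 7 of 20 were higher and 2 lower, among them the kinase gene *Fyn* (7.92 against 0.173 CPM), *Msr1* (7.42 against 0.23 CPM), and *Lrp1* (7.18 against 0.576 CPM), which were all scarce in marrow neutrophil-like cells.

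In monocyte/macrophage-like cells, *Thbs1* was 9.42-fold higher in the tendon than in blood (log2 3.24, 3.15 to 3.33), and log2 5.16 without the *Prg4* and *C1qa* cells of blood. *Cd47* was lower in the tendon by log2 -0.45 (-0.50 to -0.39), and *Cd36* was higher by 0.55 (0.41 to 0.70). Under the alternatives the *Cd36* ratio ran from -0.12 with cells weighted equally to 1.28 without the *Prg4* and *C1qa* cells. *Thbs2* was at least 2.94-fold and *Thbs4* at least 4.25-fold higher, and *Thbs3* differed by 1.03 (-0.50 to 3.01). These 3 rested on 27, 39, and 25 tendon UMIs. Relative to the mesenchymal genes, the *Thbs2* and *Thbs4* intervals of these tendon cells held the mesenchymal-like value, as given above, and that of *Thbs3* lay above it. Whether those UMIs were carried over was not tested. In all, 4 of 6 members were past 2-fold higher and 0 lower, against 17.3% and 13.1% of all genes. Once tendon immune cells holding a UMI of the 5 mesenchymal genes were left out, or 100 UMIs were asked for, only *Thbs1* was counted. The UMI minimum set this, since *Thbs2* stood at 1.02 CPM without those cells, *Thbs4* at no less than 1.39 CPM under the alternatives, and each had no UMI in blood (up to 0.395 CPM). The member median was 2.13 (1.29 with bounds) and that of all genes -0.07.

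Here the pathway genes differed in both directions, with 12 of 30 higher and 9 lower, beside 17.3% and 13.1% of all genes, and a median of 0.19. *Sdc4* again had the highest ratio among genes of the list with UMIs in both groups, with 295 CPM in the tendon and 0.395 CPM in blood (log2 9.54). *Sirpa* was higher (367 against 173 CPM) and its phosphatase gene *Ptpn6* lower (128 against 323 CPM). The fatty acid binding protein genes split, *Fabp5* being higher (1187 against 126 CPM) and *Fabp4* lower (33.6 against 218 CPM), as was *Pparg* (4.78 against 19.6 CPM). The response gene *Smad7* (53.0 against 8.82 CPM) was higher, while *Tgfb2* (0.301 against 23.7 CPM) and *Ltbp1* (0.473 against 43.3 CPM) were lower and *Tgfb1* stood at 257 and 236 CPM.

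The same class had more of both the TSP-1 gene and its scavenger receptor gene in blood than in marrow. *Thbs1* was 16.3-fold higher in blood (log2 4.03, 3.69 to 4.38) and *Cd36* 29.0-fold (4.86, 4.24 to 5.54), and *Cd47* was higher by 0.20. Of 3 members with enough UMIs, 2 were past 2-fold higher and 0 lower, against 8.49% and 11.1% of all genes, with a median of 4.03 beside -0.12 for all genes. Leaving out the *Prg4* and *C1qa* cells lowered *Thbs1* to log2 2.11. Of the 498 *Cd36* UMIs in blood, 244 were in the *Cd300e* and *Ace* cluster and 242 in the *Prg4* and *C1qa* cluster. The *F13a1* and *Ccr2* cluster had 2.17 CPM, not above the 2.26 CPM of the marrow class, so the *Cd36* ratio was not shared by all blood clusters. Of the pathway genes, 12 of 24 were higher and none lower, among them *Itga6* (95.2 against 5.35 CPM), *Fabp4* (218 against 3.81 CPM), and *Pparg* (19.6 against 2.47 CPM). *Tgfb2* and *Ltbp1* had no UMI in marrow.

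**Figure D5:**
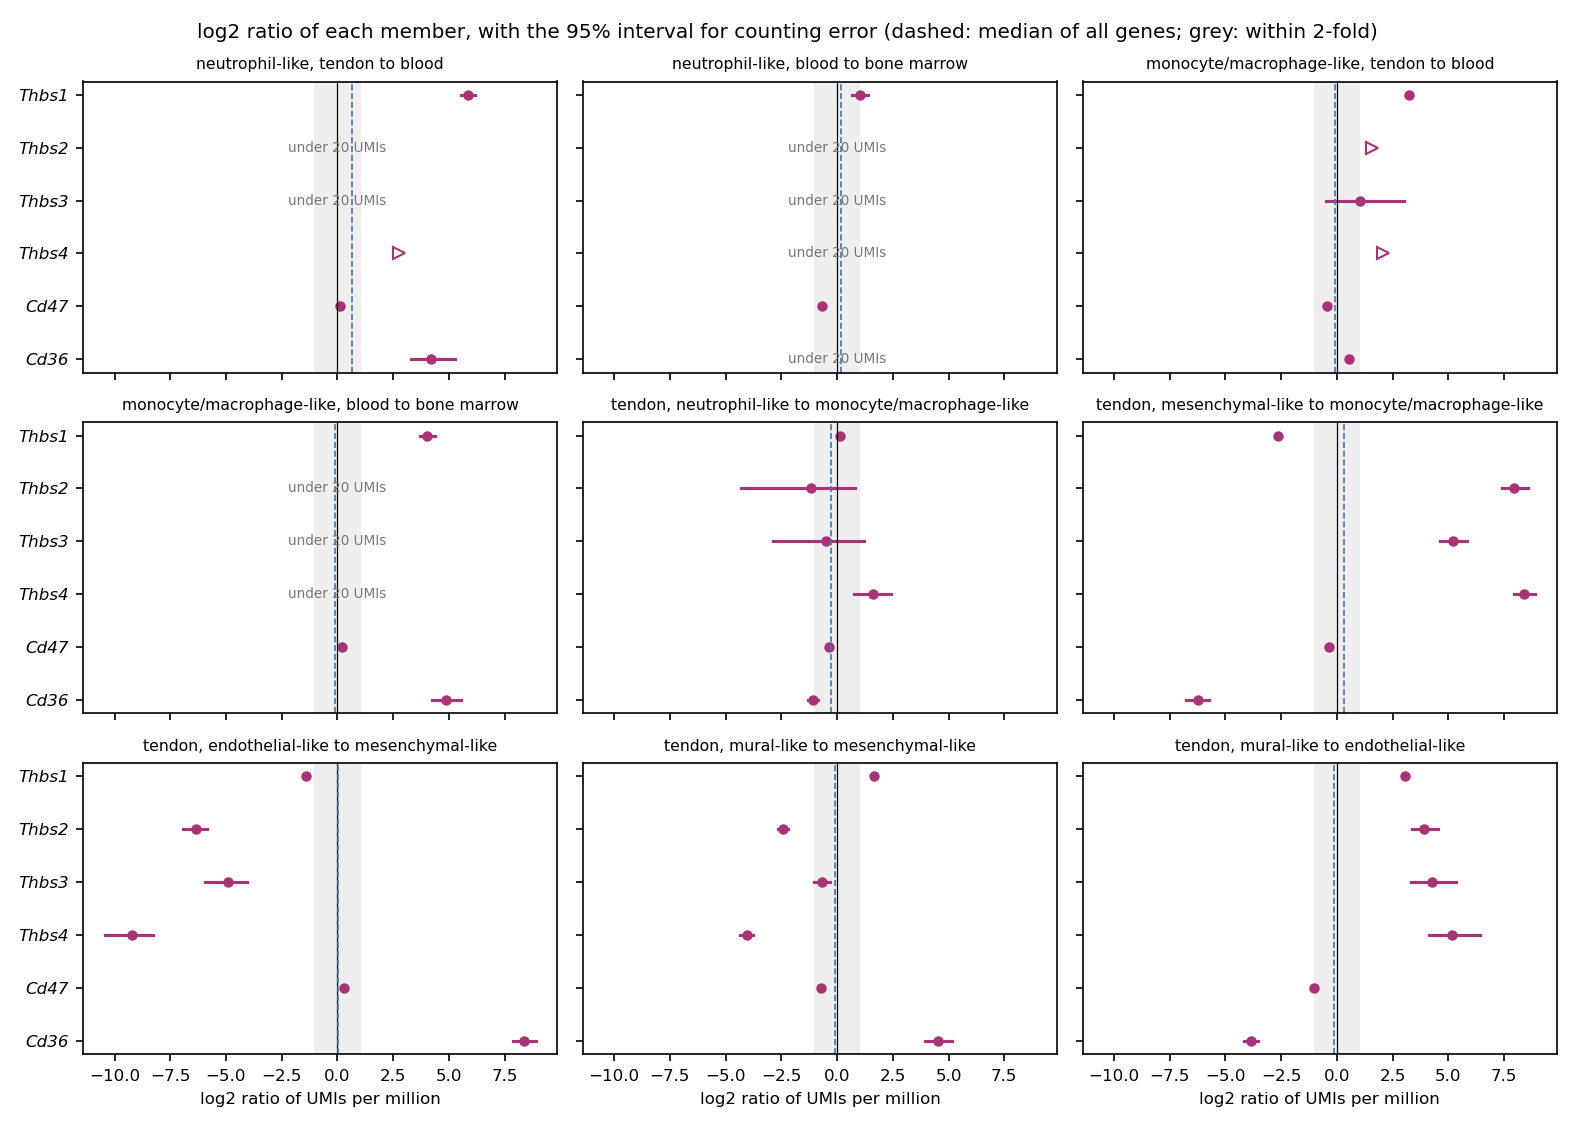
Log2 ratio of each member in the 9 comparisons, with the 95% interval for counting error, the band within 2-fold in grey, the median of all genes as a dashed line, and open triangles for lower bounds against a group without UMIs. *Thbs1* reaches 5.85 in neutrophil-like cells and 3.24 in monocyte/macrophage-like cells between tendon and blood, and the members split by class within the tendon, with *Cd36* at 8.36 and *Thbs4* at -9.23 between endothelial-like and mesenchymal-like cells. That *Thbs4* value was -5.39 with cells named one by one.

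Within the tendon, *Thbs1* was higher in neutrophil-like than in monocyte/macrophage-like cells by log2 0.11 (0.07 to 0.15). The difference ranged from -0.30 when no doublets were removed to 0.97 with a stricter filter on cells. The neutrophil-like class includes the mixed *Camp* and *Ngp* cluster, which was lower in *Thbs1* than its other clusters (2322 and 1853 CPM). The monocyte/macrophage-like clusters ran from 169 to 3174 CPM. *Cd47* was lower in neutrophil-like cells by -0.36 (-0.45 to -0.27) and *Cd36* by -1.07 (-1.29 to -0.85). *Thbs4* was higher by 1.60 (0.74 to 2.41) and *Thbs2* lower by -1.20 (-4.31 to 0.80), from the small counts given above, and *Thbs3* differed by -0.50. Past 2-fold, 1 of 6 members was higher and 2 lower, against 11.5% and 17.7% of all genes, with medians of -0.43 for the members and -0.27 for all genes. When classes were scaled by the median ratio, only *Thbs4* was past 2-fold. Of 27 pathway genes, 0 were higher and 9 lower, including *Lrp1* (66.7 against 256 CPM), *Sdc4* (95.3 against 295 CPM), *Msr1* (52.7 against 189 CPM), and *Tgfb1* (116 against 257 CPM).

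Mesenchymal-like cells, set against monocyte/macrophage-like cells, had 249-fold more *Thbs2* (log2 7.96, 7.42 to 8.56), 36.7-fold more *Thbs3* (5.20), and 340-fold more *Thbs4* (8.41). *Thbs1* was lower by log2 -2.66 and *Cd36* by -6.24, and *Cd47* differed by -0.37. Past 2-fold, 3 of 6 members were higher and 2 lower, against 33.6% and 20% of all genes, with medians of 2.41 and 0.31. Pathway genes split 13 higher and 11 lower of 32. *Comp*, the remaining pentameric thrombospondin, was at 140 CPM against 0.817 CPM. Of the listed TGF-β genes, *Ltbp2* (127 against 0.301 CPM) and *Tgfb2* (63.9 against 0.301 CPM) were among those higher. The thrombospondin receptor gene *Cacna2d1* (30.3 against 0.043 CPM) and the protease gene *Adamts1*, whose product cleaves TSP-1 (246 against 1.94 CPM), were also higher. *Itga4*, *Ptpn6*, *Msr1*, *Plin2*, and *Tgfb1* were lower.

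Endothelial-like cells had 329-fold more *Cd36* than mesenchymal-like cells (log2 8.36) and less of each thrombospondin, by -1.42 for *Thbs1*, -6.35 for *Thbs2*, -4.92 for *Thbs3*, and -9.23 for *Thbs4*. The *Thbs4* ratio rested on 8 endothelial-like UMIs and was -5.39 with cells named one by one. *Cd47* was within 2-fold at 0.29. Past 2-fold, 1 of 6 members was higher and 4 lower, against 15.7% and 16.5% of all genes, with medians of -3.17 and 0.04. The lipid genes followed *Cd36*, 6 of 8 being higher, with *Fabp4* at 7458 against 29.6 CPM, *Scarb1* at 168 against 5.29 CPM, and *Pparg* at 27.1 against 0.618 CPM. Among integrin genes, *Itga6* (164 against 3.48 CPM), *Itga3* (28.8 against 0.193 CPM), and *Itgb3* (31.8 against 4.79 CPM) were higher. *Lrp1* (7.94 against 394 CPM) and *Sdc4* (13.6 against 287 CPM) were lower, as were 5 of 10 TGF-β genes. Over the pathway list, 11 of 33 were higher and 11 lower.

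Mural-like cells had 3.11-fold more *Thbs1* than mesenchymal-like cells (log2 1.64, 1.56 to 1.72) and more *Cd36* (4.53), and less *Thbs2* (-2.43), *Thbs4* (-4.06), *Cd47* (-0.73), and *Thbs3* (-0.66). Past 2-fold, 2 of 6 members were higher and 2 lower, against 10.3% and 15.3% of all genes, with medians of -0.69 and -0.08. *Itgb1* (922 against 346 CPM), *Cacna2d1* (95.4 against 30.3 CPM), and *Tgfb3* (90.0 against 33.6 CPM) were among 12 of 33 pathway genes that were higher, and *Lrp1* (68.7 against 394 CPM) among 6 that were lower. The *Cd36* value was 29.4 CPM in mural-like cells named by cluster and 205 CPM when cells were named one by one, and *Fabp4*, a leading gene of the endothelial-like cluster, stood at 1615 CPM in mural-like cells. Whether endothelial RNA contributed to these values was not tested.

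Mural-like cells also had 8.35-fold more *Thbs1* than endothelial-like cells (log2 3.06), with more *Thbs2* (3.92), *Thbs3* (4.26), and *Thbs4* (5.17) and less *Cd36* (-3.84) and *Cd47* (-1.02). All 6 members were past 2-fold, 4 higher and 2 lower, against 11.9% and 16.3% of all genes, with medians of 3.49 and -0.11. The *Thbs4* difference rested on the 1 mural-like cell described above and turned to -4.28 when cells were named one by one. Pathway genes were split, with 8 of 29 higher and 9 lower. *Sdc4* (193 against 13.6 CPM), *Lrp1* (68.7 against 7.94 CPM), and *Tgfb3* (90.0 against 3.32 CPM) were higher, and *Itga6* (9.13 against 164 CPM) and *Scarb1* (8.46 against 168 CPM) lower.

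Across the 45 clusters of at least 50 cells, which come from 3 libraries and differ in depth, the genes most like each member by Pearson r of log2(CPM + 1) were as follows, among 12326 genes. The choice depended on the measure: by Spearman's rank correlation 3 of the 5 genes stayed among the first 5 for *Thbs1*, 2 for *Cd47* and *Cd36*, and 0 for *Thbs2*, *Thbs3*, and *Thbs4*. Over the 20 tendon clusters alone, 1 stayed for *Thbs1*, 3 for *Thbs2*, *Thbs3*, and *Thbs4*, and 0 for *Cd47* and *Cd36*. *Thbs1* was most like the chemokine genes *Cxcl2* (0.90) and *Cxcl3* (0.85), the early response gene *Ier3* (0.88), the endotoxin receptor gene *Cd14* (0.85), and *Ptgs2* (0.85), the prostaglandin synthase gene. *Thbs2* was most like *Col16a1* (0.98), *Dclk1* and *Vgll3* (both 0.97), *Serpina3n* (0.97), and *Zfhx4* (0.96). *Thbs3* was most like *Wisp2* and *Slit3* (both 0.94) and *Shc2*, *Aldh1a2*, and *Lum* (all 0.93), and *Thbs4* like *Has1* and *Lum* (both 0.96) and *Osr2*, *Fmod*, and *Cpxm1* (all 0.95). *Cd47* had no close neighbor, with *Arhgef6* first at 0.78, followed by *Rnf166*, *Sp110*, *Taok3*, and *Lrmp*. *Cd36* was most like *Smagp* (0.85), *Fabp4* (0.81), *Lgmn* (0.79), *Rab5c*, and *Ednrb* (both 0.77). Between members, r was 0.88 for *Thbs2* with *Thbs3* and for *Thbs3* with *Thbs4*, 0.79 for *Thbs2* with *Thbs4*, 0.57 for *Thbs1* with *Cd36*, and -0.41 for *Thbs1* with *Cd47*.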

How the data were processed

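Single-cell libraries (10x 3′ chemistry) of bone marrow, blood, and tendon injury site cells were analyzed, with 1 library per tissue. The authors deposited a matrix of whole-number UMI counts for each library, produced by Cell Ranger 5.0.1 (file header) on mm10 (labels), with an annotation release not given in the sources used here. From these counts, cells with at least 200 genes and at most 20% mitochondrial UMIs were kept, which removed 15, 57, and 651 cells of marrow, blood, and tendon. Scrublet's own threshold marked only 1, 32, and 6 cells, so the cells of highest score were removed at 0.8% per 1000 cells, or 27, 38, and 198 cells. Each library was clustered with scanpy 1.11.5 (2000 variable genes without the 39 reported genes, 30 components, 15 neighbors, Leiden resolution 1). A cluster took a class name when at least 3 markers of the class, and more than of any other, were among its 100 leading genes by fold. It stayed unnamed when another class led its top 10, or when its depth was low and its top 10 held no marker of the class. The marker genes *Trac*, *Trbc1*, *Trbc2*, and *Ighm* are not in the tables.

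UMIs were summed per class and compared as CPM. With 1 library per group there is no replicate and no test was made. Ratios carry exact binomial 95% intervals, shares exact Clopper-Pearson intervals, and a group without UMIs was set at 3 counts over the group. Ratio intervals were checked on simulated independent Poisson counts, the model that they assume. That check cannot cover UMIs that cluster in single cells. To compare shares across depths, cells were thinned to 1000 UMIs (500 as an alternative). A gene was counted as past 2-fold where both groups together held at least 20 UMIs. All 6 members are named, with examples from a pathway list of 33 genes chosen for their roles, and the 5 genes of highest r with each member (genes with at least 200 UMIs, clusters of at least 50 cells). The values of 1 gene of that list are not reported here. The members and gene lists were chosen with earlier results of these data known. Alternatives numbered 13, with 3 more added after the data were seen. Promoters came from RefSeq. Python 3.11.15, numpy 2.4.6, scipy 1.17.1, and pandas 2.3.3 were used.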

Additional observations from a re-analysis of the deposited data

Results flagged for a closer look

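The neutrophil-to-monocyte order of *Thbs1* was not the same at the 3 sites. In bone marrow, neutrophil-like cells had more *Thbs1* than monocyte/macrophage-like cells by log2 0.50 (interval 0.11 to 0.90), and at the tendon injury site by 0.11 (0.07 to 0.15). In blood the ratio was -2.51 (-2.83 to -2.20), so that it pointed the other way. In marrow the order turned with cells named one by one, where monocyte/macrophage-like cells had 19.4 CPM and neutrophil-like cells at most 12.96 CPM under the alternatives run, and in tendon it turned to -0.30 when no doublets were removed. With 1 library per site, this difference between sites was not tested. The blood value moved with single clusters: 770 of the 994 monocyte/macrophage-like UMIs were in the 37 *Prg4* and *C1qa* cells, and 87 of the 93 neutrophil-like UMIs in the *Camp* and *Ngp* cluster. At the tendon, the neutrophil-like class included the mixed *Camp* and *Ngp* cluster, with less *Thbs1* than the other clusters of that class.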

How the results depend on the processing

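No paired analysis was possible because each tissue is 1 library. Of the 9 counts of members past 2-fold, 5 stayed within 1.5 times under all alternatives. Between tendon and blood neutrophil-like cells, 3 members became 1 with the libraries clustered together and 1 without the *Camp* and *Ngp* clusters. Between blood and marrow neutrophil-like cells, 1 became 0 at resolution 0.5 or 2, with libraries clustered together, with reported genes kept as variable features, with cells named one by one, with median-ratio scaling, and with cells weighted equally, and 3 with no minimum of UMIs. For monocyte/macrophage-like cells of tendon and blood, 4 became 1 at a minimum of 100 UMIs and 1 without immune cells holding a UMI of the 5 mesenchymal genes. For tendon neutrophil-like against monocyte/macrophage-like cells, 3 became 1 with median-ratio scaling, 1 at 100 UMIs, and 1 without immune cells holding a UMI of the 5 mesenchymal genes. The *Thbs1* log2 ratio of blood to marrow neutrophil-like cells turned to -0.066 at resolution 0.5, -0.0051 at resolution 2, -0.52 with cells weighted equally, and -2.38 without the *Camp* and *Ngp* clusters, and *Thbs4* of mural-like to endothelial-like cells to -4.28 with cells named one by one. The cause was not tested.

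The *Thbs1* ratio of tendon to blood ran from 5.18 to 9.98 in neutrophil-like and from 2.95 to 5.16 in monocyte/macrophage-like cells. *Cd36* in neutrophil-like cells ran from 1.22 to 7.40. Over the alternatives, 136 CPM values moved and 548 did not, and 135 log2 ratios moved, 5 reversed, and 500 did neither. The *Thbs4* level of mesenchymal-like cells was 570 CPM and fell to 300 CPM at resolution 2. That of endothelial-like cells was 0.948 CPM and rose to 13.3 CPM with cells named one by one. Depth limits what can be said of *Thbs2* to *Thbs4* outside stromal cells. Intervals leave out the spread between mice.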

Other observations

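Cells held back by the naming rule carried part of the members' signal. The unnamed tendon clusters together stood at 948 CPM of *Thbs1* (927 to 968), 258 CPM of *Cd36*, and 318 CPM of *Cd47*. The *Arg1* and *Spp1* cluster, 5.06% of tendon cells, was highest in *Cd36* and had 10.6-fold the *Thbs1* level of the *Cd163* cluster (log2 3.41, 3.31 to 3.51) and 4.14-fold its *Cd36* level (2.05, 1.93 to 2.17). Against the *Il1b* and *Chil3* cluster its *Cd36* was 97.2-fold higher (log2 6.60, 5.85 to 7.48) and its *Thbs1* differed by -0.82. *Pf4*, a chemokine gene of platelets that macrophages also express, was at 10077 CPM in these cells and the platelet gene *Ppbp* at 559.8 CPM. Of other platelet markers, *Gp9* and *Gp1bb* had no UMI in them and *Itga2b* was at 0.289 CPM. The same 3 genes stood at 337, 772, and 381 CPM in the unnamed blood group led by hemoglobin genes and *Ppbp*.

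In small classes of the tendon, single cells held much of the *Thbs1* count. The 22 B-like cells of the tendon had 137 CPM of *Thbs1*, with 11 of 12 UMIs in 1 cell. The 16 skeletal muscle-like cells had 69.2 CPM, with 23 of 44 UMIs in 1 cell, or 36.5 CPM without it.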
